A study of Mus musculus with 6 samples.

Results

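The genes described here are 33 components of TGF-beta and BMP signalling, measured by total RNA sequencing of whole mouse ovaries. They were chosen by symbol as a list of pathway genes, with earlier results of these data known. The further pathway genes and cell type markers given below were chosen with the same knowledge. The 33 comprise TGF-beta and BMP ligands, their receptors, the activin receptors, the SMAD proteins, the ID target genes, BMP antagonists and a latency protein. All 33 symbols matched an Ensembl identifier among the 55487 in the deposited count table, and all 33 were among the 16957 genes with enough counts to be tested. The comparison was between 3 GalTKO libraries and 3 wildtype libraries. GalTKO mice lack Galt, which encodes the galactose-1-phosphate uridylyltransferase of galactose breakdown. Mice of both genotypes were at postnatal day 49, had received 2.5% galactose in the diet for 4 weeks, and carry the same strain label, cbl/6-ola/129. The labels do not say whether a sample is 1 animal, whether ovaries were pooled, or at which estrous stage they were taken, and the p-values given refer to the variation among these 6 libraries, which may be partly technical.

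Ligands of the TGF-beta superfamily bind pairs of type I and type II receptor kinases, which phosphorylate SMAD proteins. TGF-beta and activin receptors act mainly through SMAD2 and SMAD3, and BMP receptors through SMAD1, SMAD5 and SMAD9. SMAD4 is the shared partner of both branches, and SMAD6 and SMAD7 inhibit them. In the ovary these signals pass between oocyte, granulosa, theca, stromal and vascular cells, and they are known for their part in follicle growth and luteinization.

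Galt was nearly absent from the GalTKO libraries. It had 0.155, 0.259 and 0 CPM (counts scaled to the TMM-adjusted library size) in GalTKO replicates 1 to 3, against 17.8, 16.1 and 17.4 CPM in wildtype replicates 1 to 3, and the log2 fold change was -6.82 ± 0.41 (SE; adjusted p = 0.000153, from edgeR's quasi-likelihood test with Benjamini-Hochberg adjustment over all genes tested). Library totals were 25729564, 22910143 and 19232486 counts in GalTKO replicates 1 to 3 and 24861338, 23714522 and 23685626 counts in wildtype replicates 1 to 3. Granulosa and oocyte markers were present in every library: the 8 granulosa markers summed to 6918 to 7895 CPM in GalTKO and 6587 to 7621 CPM in wildtype libraries, and the 10 oocyte markers to 268 to 312 CPM in GalTKO and 232 to 357 CPM in wildtype libraries. GalTKO replicate 2 stood apart from the other GalTKO libraries. Its Cyp17a1, a theca cell steroidogenic enzyme gene, was at 7.29 CPM, while GalTKO replicates 1 and 3 had 399.7 and 296 CPM. It also had the lowest summed luteal markers, 2605 CPM, and the highest summed stromal markers, 5399 CPM, of the 6 libraries.

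Across the 33 genes, the BMP signal transducer Smad1 was the 1 that changed, and it was lower in GalTKO ovaries. A gene was called changed when its adjusted p, over all genes tested, was under 0.05. No member was called higher. Of all 16957 genes tested, 433 (2.55%) were called, so 1 of 33 is near the background share. Before adjustment, p was under 0.05 for 6 members, 5 with a negative and 1 with a positive fold change, and for 2898 (17.1%) of all tested genes. The 3 GalTKO values lay wholly below the 3 wildtype values for 4 members, namely Smad1, Bmpr1a, Bmpr2 and Tgfbr2. That order held for 2029 (12.0%) of all tested genes, and groups that did not overlap in either direction were found for 4022 (23.7%) of them. No member had GalTKO values wholly above wildtype values. The fold change was negative for 20 members and positive for 13, and negative for 7896 (46.6%) of all tested genes. The median log2 fold change was -0.06 over the members and 0.02 over all tested genes. With 1 library left out, the member median ran from -0.10 (without wildtype replicate 3) to 0.02 (without wildtype replicate 1). The median size of the change, without its sign, was 0.12 for members and 0.17 for all tested genes.

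**Figure D1:**
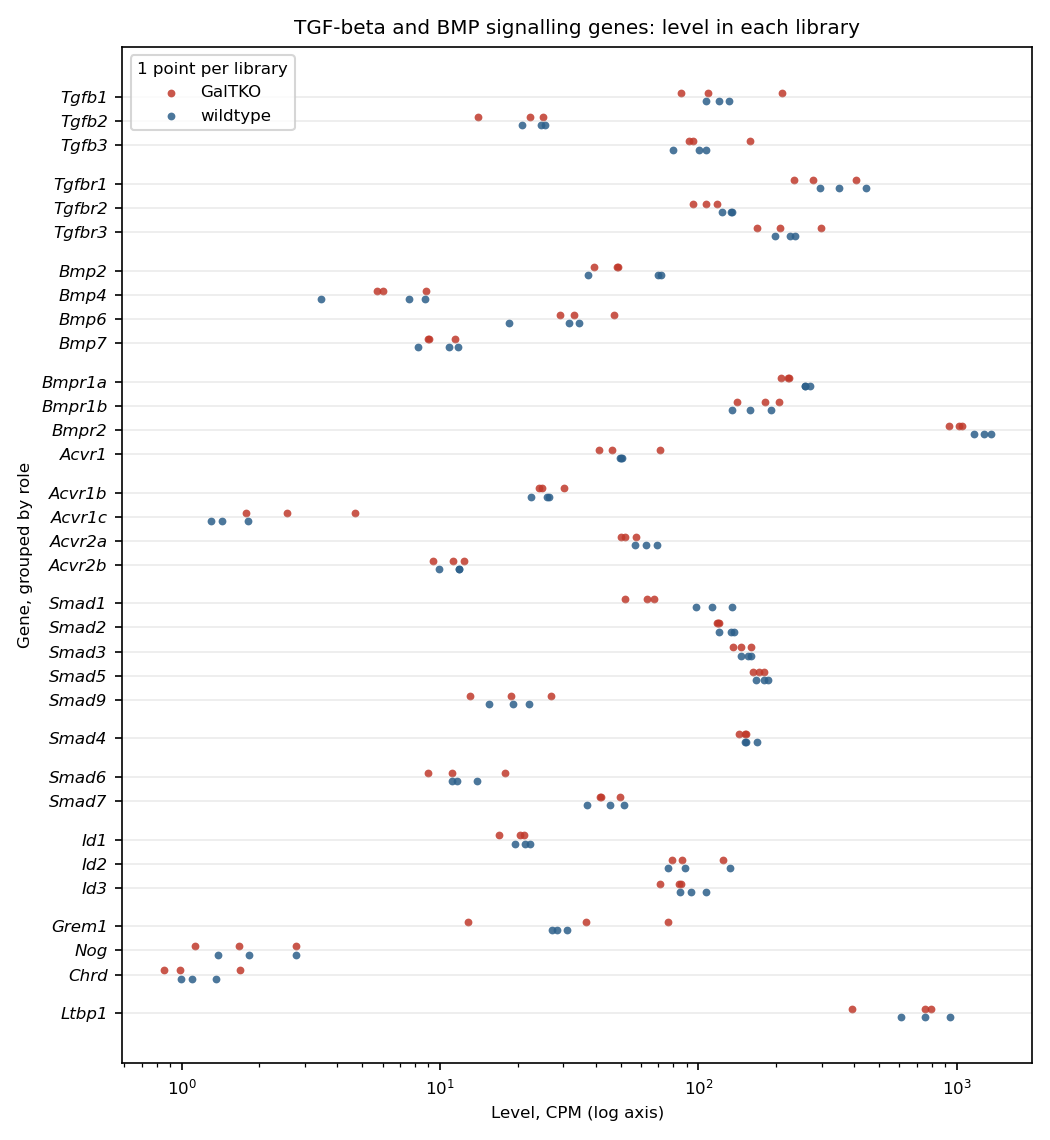
Level of each of the 33 genes in CPM on a log axis, with 1 point per library, GalTKO in red above wildtype in blue, grouped by role. Smad1 is separated by genotype, with 51.9 to 67.3 CPM in GalTKO and 97.9 to 135 CPM in wildtype libraries, while Grem1 spreads from 12.9 to 76.4 CPM in GalTKO and from 27.2 to 31.0 CPM in wildtype libraries.

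The receptor-activated SMADs carry the signal from the receptor to the nucleus. Smad1, one of the 3 that serve BMP receptors (ENSMUSG00000031681; GRCm38 chromosome 8, 79338395 to 79399518, minus strand), had 51.9, 63.2 and 67.3 CPM in GalTKO replicates 1 to 3, against 97.9, 113 and 135 CPM in wildtype replicates 1 to 3. All 3 GalTKO libraries lay below the lowest wildtype library. The means were 60.8 ± 7.95 CPM in GalTKO and 115 ± 18.6 CPM in wildtype ovaries (SD, n = 3 each), a log2 fold change of -0.92 ± 0.14 (SE), which is 0.527-fold (edgeR quasi-likelihood test, adjusted p = 0.0154). With 1 library left out in turn, the log2 fold change ran from -1.03 to -0.80 and the gene stayed past the threshold except without wildtype replicate 2, where it was -0.95 with an edgeR adjusted p of 0.0709. Without GalTKO replicate 2, the library that stood apart, it was -0.95 with an edgeR adjusted p of 0.0241. Summed markers of other cell types were lower in the same libraries: the 8 endothelial markers summed to 471 to 517 CPM in GalTKO and 586 to 734 CPM in wildtype libraries, and the 8 macrophage markers to 220 to 253 CPM in GalTKO and 350 to 433 CPM in wildtype libraries. The 6 theca and interstitial markers summed to 6956 to 10481 CPM in GalTKO and 11335 to 16422 CPM in wildtype libraries. Of these 6 genes, 4 had a negative and 2 a positive fold change. The part of these cell types in the Smad1 difference was not tested. In whole ovaries, fewer cells of a type and less RNA per cell cannot be told apart.

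The promoters of Smad1 and of Gdf10, a ligand gene of the family described further on, are shown because both genes were called changed. Both were lower in GalTKO ovaries. Amh, the other pathway gene that was called, had no entry among the promoters used. The promoters shown are from RefSeq (GRCm38.p6) and run 5′ to 3′ towards the gene. The Gdf10 window holds the 250 bases before the start site, and the Smad1 window holds 160 of the 250, leaving out the 90 nearest the start that GENCODE places in exons. Capitals mark the SMAD box, CAGAC, searched together with its reverse complement GTCTG on both strands. The GC-rich SMAD box GGCGCC, which reads the same on both strands and may overlap the other motif by 1 base, was searched as well.
Smad1 chr8:79399519-79399678 (minus strand): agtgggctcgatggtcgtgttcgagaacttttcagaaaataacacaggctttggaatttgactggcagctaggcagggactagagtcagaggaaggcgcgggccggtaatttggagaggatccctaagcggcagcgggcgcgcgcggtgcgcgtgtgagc
Gdf10 chr14:33923337-33923586 (plus strand): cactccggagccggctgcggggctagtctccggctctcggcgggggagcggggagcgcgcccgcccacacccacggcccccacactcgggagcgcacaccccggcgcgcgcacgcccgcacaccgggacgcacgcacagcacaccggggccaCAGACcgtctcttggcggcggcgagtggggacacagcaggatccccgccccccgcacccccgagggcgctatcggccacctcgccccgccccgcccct
The Gdf10 window has 1 CAGAC match, 98 bases before the start, and the Smad1 window has none. Of 32851 mouse windows of 250 bases, 42.2% hold CAGAC or GTCTG and 9.59% hold GGCGCC. At 160 bases the shares are 30.3% and 5.30%, and neither window shown holds GGCGCC.

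The paralogs of Smad1 did not pass the test. Smad5, which serves the same receptors, had 171, 179 and 163 CPM in GalTKO and 186, 179.9 and 168 CPM in wildtype replicates 1 to 3, and the groups overlapped. Its log2 fold change was -0.06 ± 0.08 (SE; edgeR adjusted p = 0.774), the interval of 1 SE on either side being 0.908-fold to 1.02-fold. Smad9, the least abundant of the 3 per length, averaged 19.6 ± 6.98 CPM in GalTKO and 18.9 ± 3.36 CPM in wildtype ovaries (SD, n = 3 each), with a log2 fold change of 0.05 ± 0.26 (SE).

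Levels per kilobase of exon (RPKM) allow the 3 genes to be set beside each other. Smad1 made up 24.6%, 25.7% and 29.7% of the summed RPKM of Smad1, Smad5 and Smad9 in GalTKO replicates 1 to 3, against 34.8%, 39.3% and 45.8% in wildtype replicates 1 to 3. The summed RPKM of the 3 genes was 36.4 ± 2.76 in GalTKO and 45.9 ± 1.08 in wildtype ovaries (SD, n = 3 each). The ratio of Smad1 to Smad5 in RPKM was 0.360, 0.418 and 0.489 in GalTKO and 0.623, 0.744 and 0.953 in wildtype replicates 1 to 3, without overlap. The mean log2 ratio differed by -0.86 (GalTKO minus wildtype), with p = 0.1 in a two-sided exact permutation test, the smallest that 3 against 3 libraries allow, and 0.25 after Benjamini-Hochberg adjustment over the 5 ratios computed. These ratios were chosen after the levels had been seen.

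Smad2 and Smad3, which serve the TGF-beta and activin receptors, did not pass the test. Smad2 had 118, 120.4 and 119 CPM in GalTKO and 137, 120.1 and 133 CPM in wildtype replicates 1 to 3, so the GalTKO libraries lay close together and overlapped the lowest wildtype library. The log2 fold changes were -0.13 ± 0.08 for Smad2 and -0.06 ± 0.09 for Smad3 (SE). Smad4, the common partner, averaged 149 ± 4.92 CPM in GalTKO and 157 ± 8.99 CPM in wildtype ovaries (SD, n = 3 each), a log2 fold change of -0.08 ± 0.08 (SE). The inhibitory Smad6 and Smad7 had log2 fold changes of 0.05 ± 0.25 and -0.00 ± 0.14 (SE), and the sign of both turned under alternative settings.

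**Figure D2:**
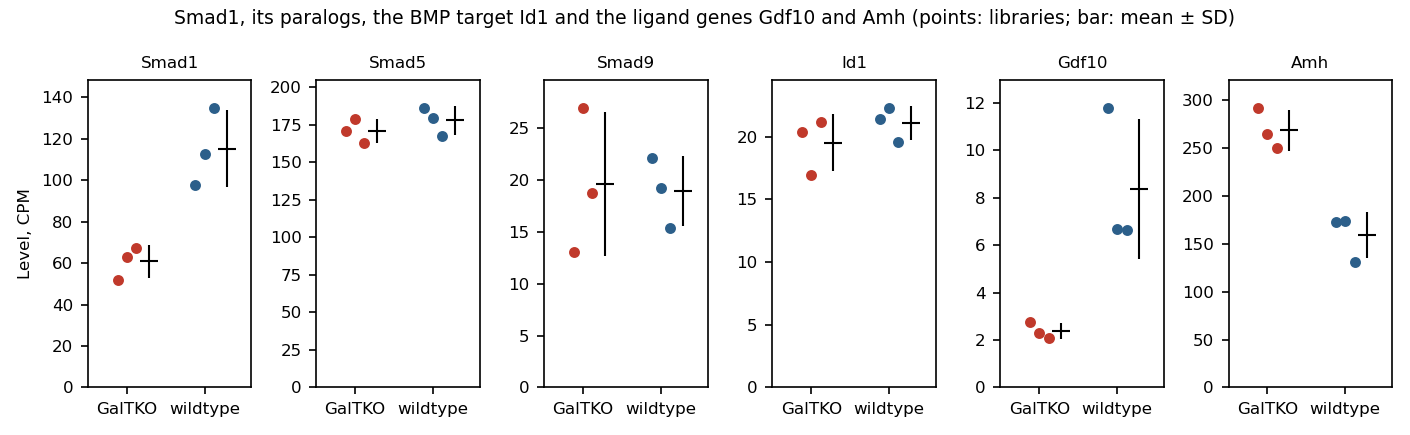
Level in CPM, from 0, of Smad1, its paralogs Smad5 and Smad9, the BMP target Id1 and the ligand genes Gdf10 and Amh, with GalTKO left of wildtype, 1 point per library, and the mean ± SD beside the points. Smad1 and Gdf10 are lower and Amh is higher in all 3 GalTKO libraries, while Smad5, Smad9 and Id1 overlap between genotypes.

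The BMP receptors included 2 of the genes with no overlap between genotypes. Bmpr2, the type II receptor of the BMP branch, had 933, 1024 and 1045 CPM in GalTKO and 1353, 1279.9 and 1163 CPM in wildtype replicates 1 to 3. Its highest GalTKO library lay below its lowest wildtype library. The log2 fold change was -0.34 ± 0.11 (SE, 0.791-fold; edgeR adjusted p = 0.157), so it was not called. Bmpr1a, a type I receptor, had 225, 209 and 222 CPM in GalTKO against 269.7, 259 and 258 CPM in wildtype replicates 1 to 3, again with every GalTKO library below every wildtype library. Its log2 fold change was -0.26 ± 0.08 (SE, 0.834-fold; edgeR adjusted p = 0.135), and it was not called either. The DESeq2 Wald test called Bmpr2 (adjusted p = 0.0255) and Bmpr1a (adjusted p = 0.0443) lower as well as Smad1, which makes 3 of 33 members, where that test called 1044 (6.16%) of all 16957 genes.

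Bmpr1b, the type I receptor through which BMP15 acts on granulosa cells, had 205, 142 and 182 CPM in GalTKO and 191, 159 and 135 CPM in wildtype replicates 1 to 3. The groups overlapped, with a log2 fold change of 0.12 ± 0.17 (SE). In RPKM, Bmpr1a made up 46.0 ± 1.29% of the 3 type I BMP receptor genes (Bmpr1a, Bmpr1b and Acvr1) in GalTKO and 52.5 ± 2.60% in wildtype ovaries (SD, n = 3 each), without overlap. The Bmpr1a to Bmpr1b ratio did overlap, at 1.19 ± 0.181 in GalTKO and 1.55 ± 0.235 in wildtype ovaries (SD; two-sided exact permutation test on the log2 ratio, p = 0.2, 0.333 adjusted over the 5 ratios). Acvr1, a type I receptor that also takes BMP ligands, averaged 52.9 ± 16.0 CPM in GalTKO and 50.3 ± 0.490 CPM in wildtype ovaries (SD, n = 3 each), with GalTKO replicate 2 the highest at 71.1 CPM.

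Of the TGF-beta receptors, the type II receptor Tgfbr2 had 119, 107 and 95.3 CPM in GalTKO and 134, 133 and 123 CPM in wildtype replicates 1 to 3. Each GalTKO library lay below each wildtype library, by little between the closest pair. With a log2 fold change of -0.29 ± 0.10 (SE, 0.820-fold; edgeR adjusted p = 0.193), the gene was not called. The type I receptor Tgfbr1 had 278, 234 and 407 CPM in GalTKO and 297, 351 and 447 CPM in wildtype replicates 1 to 3, which overlap, and a log2 fold change of -0.25 ± 0.23 (SE). Tgfbr1 lies 5.60 Mb from Galt on chromosome 4. The co-receptor Tgfbr3, or betaglycan, which also presents inhibin, averaged 224 ± 66.2 CPM in GalTKO and 220.1 ± 19.3 CPM in wildtype ovaries (SD, n = 3 each).

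**Figure D3:**
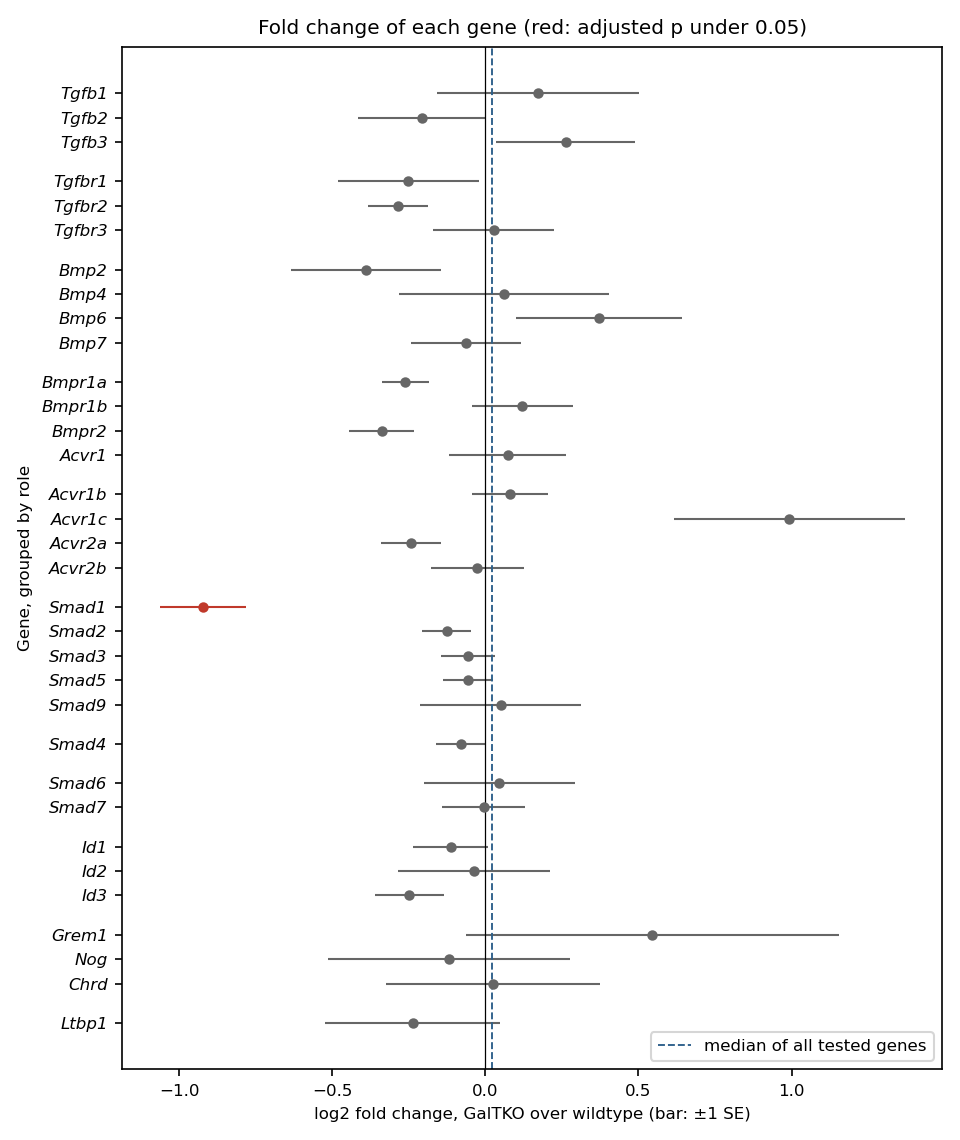
Log2 fold change of each gene, GalTKO over wildtype, with bars of 1 SE and genes grouped by role, the called gene in red and a dashed line at the median of all tested genes, 0.02. Smad1 stands at -0.92, the largest member changes that were not called are 0.99 for Acvr1c and 0.54 for Grem1, and the other members lie between -0.39 and 0.37.

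Among the activin receptors, the type II receptor Acvr2a had 52.1, 50.1 and 57.3 CPM in GalTKO and 57.1, 62.8 and 68.9 CPM in wildtype replicates 1 to 3. The groups overlapped by 1 library on each side, GalTKO replicate 3 lying just above wildtype replicate 1. It had a log2 fold change of -0.24 ± 0.10 (SE; edgeR adjusted p = 0.266). Acvr2a shares 446 exon bases with Orc4 on the opposite strand, and Orc4 had a log2 fold change of -0.05; the sources used here do not say whether counting used strand. Acvr1c, a type I receptor for activin-like ligands, was the 1 member with an unadjusted p under 0.05 and a positive fold change. It had 2.55, 4.70 and 1.77 CPM in GalTKO and 1.80, 1.44 and 1.3 CPM in wildtype replicates 1 to 3, overlapping between GalTKO replicate 3 and wildtype replicate 1. The log2 fold change was 0.99 ± 0.38 (SE; edgeR adjusted p = 0.232), and 0.52 without GalTKO replicate 2. Acvr1b, the type I activin receptor, averaged 26.5 ± 3.33 CPM in GalTKO and 25 ± 2.18 CPM in wildtype ovaries, and the type II Acvr2b 11 ± 1.48 CPM in GalTKO and 11.2 ± 1.12 CPM in wildtype ovaries (SD, n = 3 each).

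Bmpr2 was the most abundant of the 3 type II BMP and activin receptor genes (with Acvr2a and Acvr2b) per length in both genotypes, with 55.7 ± 3.31 RPKM in GalTKO and 70.3 ± 5.33 RPKM in wildtype ovaries (SD, n = 3 each). Over all 33 members it came after Ltbp1 in mean RPKM in both genotypes, but the 2 genes were not separated beyond their spread: Ltbp1 averaged 60.7 ± 20.8 RPKM in GalTKO and 71.6 ± 15.6 RPKM in wildtype ovaries. Chrd and Acvr1c were the lowest in both, at 0.188 ± 0.0712 and 0.324 ± 0.163 RPKM in GalTKO and at 0.184 ± 0.0299 and 0.163 ± 0.0278 RPKM in wildtype ovaries (SD, n = 3 each). Smad1 lay between Acvr2a, with 9.35 ± 0.652 RPKM in GalTKO and 11.1 ± 1.04 RPKM in wildtype ovaries, and Smad3, with 26.6 ± 2.10 RPKM in GalTKO and 27.7 ± 1.3 RPKM in wildtype ovaries. It averaged 9.71 ± 1.27 RPKM in GalTKO, close to Acvr2a, and 18.4 ± 2.97 RPKM in wildtype ovaries, above Acvr2a.

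None of the 4 BMP ligand genes passed the test. Bmp2, a ligand of granulosa and other ovarian cells, had 48.7, 48.4 and 39.3 CPM in GalTKO and 71.4, 70.0 and 37.2 CPM in wildtype replicates 1 to 3. The first 2 wildtype libraries lay above every GalTKO library and the third below, so the groups overlapped. The log2 fold change was -0.39 ± 0.24 (SE; edgeR adjusted p = 0.478), and without wildtype replicate 3 it was -0.64 with an edgeR adjusted p of 0.0723. Bmp6, a ligand that oocytes make in the mouse, had 47.3, 33.0 and 29.2 CPM in GalTKO and 34.6, 31.7 and 18.4 CPM in wildtype replicates 1 to 3, with a log2 fold change of 0.37 ± 0.27 (SE; edgeR adjusted p = 0.548). Its groups overlapped too, with GalTKO replicate 1 the highest and wildtype replicate 3 the lowest. Bmp4 and Bmp7, known in the ovary as ligands of theca and stromal cells, had log2 fold changes of 0.06 ± 0.34 and -0.06 ± 0.18 (SE).

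Within each library, the shares of Bmp6 and Bmp2 among the BMP ligand genes did not overlap between genotypes, although their levels did. Bmp6 made up 37.9%, 30.7% and 32.1% of the summed RPKM of the 4 genes in GalTKO and 24.8%, 24.0% and 25.1% in wildtype replicates 1 to 3. Bmp2 made up 42.8%, 49.3% and 47.4% in GalTKO and 56.2%, 58.1% and 55.8% in wildtype replicates 1 to 3. Wildtype replicate 3, which was the lowest library in both genes by level, had shares like those of the other wildtype libraries. The ratio of Bmp6 to Bmp2 in RPKM was 0.728 ± 0.139 in GalTKO and 0.435 ± 0.0199 in wildtype ovaries (SD, n = 3 each), a mean log2 difference of 0.73 with a two-sided exact permutation p of 0.1, the smallest possible, and 0.25 adjusted over the 5 ratios. Bmp6 shares 224 exon bases with Txndc5 on the opposite strand, and Txndc5, with 382, 339 and 293 CPM in GalTKO and 300.1, 275 and 258 CPM in wildtype replicates 1 to 3, had a log2 fold change of 0.28 ± 0.12 (SE; edgeR adjusted p = 0.259). Its part in the Bmp6 counts was not tested. In all, 24 such shares were computed in 8 gene families, and 6 did not overlap between genotypes. By level, the groups did not overlap for 23.7% of all tested genes, and 6 of 24 is near that. The 6 were the shares of Smad1, Bmpr1a and Bmp2, lower in GalTKO, and of Smad5, Acvr2b and Bmp6, higher in GalTKO. Shares within a family sum to 100%, so those of a family are not independent.

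**Figure D4:**
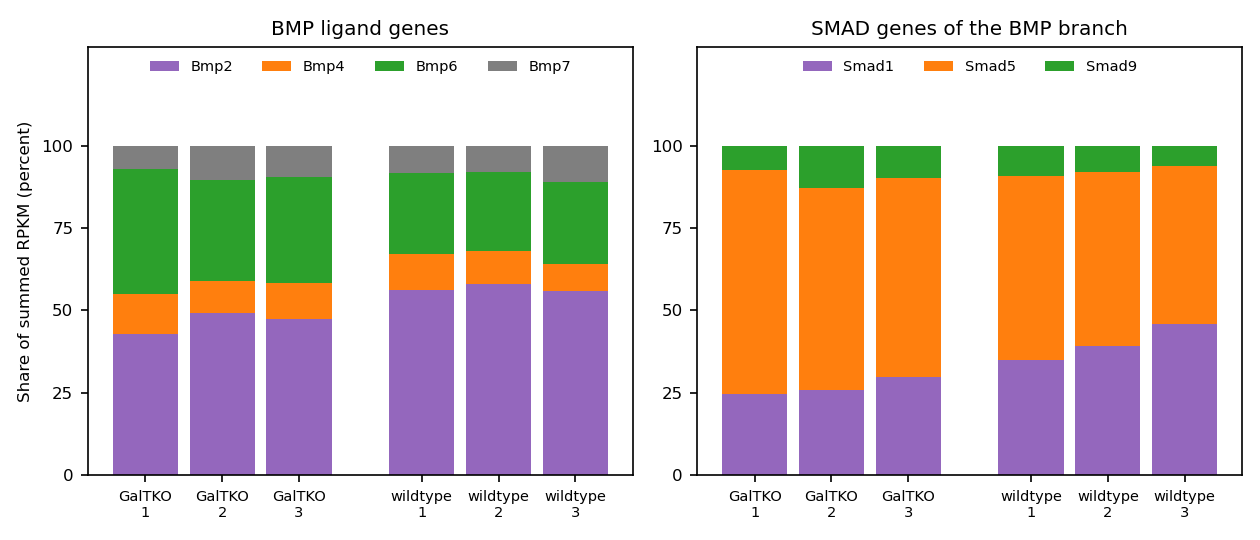
Share of each gene in the summed length-scaled level (RPKM, in percent) of the 4 BMP ligand genes and of the 3 SMAD genes of the BMP branch, with 1 bar per library and GalTKO left of wildtype. Bmp6 takes 30.7% to 37.9% in GalTKO and 24.0% to 25.1% in wildtype libraries, and Smad1 takes 24.6% to 29.7% in GalTKO and 34.8% to 45.8% in wildtype libraries.

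The TGF-beta ligands are secreted in a latent form and act on many cell types. Tgfb1 had 210.4, 85.3 and 109 CPM in GalTKO and 132, 120.4 and 107 CPM in wildtype replicates 1 to 3. GalTKO replicates 1 and 2 were the highest and the lowest of the 6 libraries. The log2 fold change was 0.17 ± 0.33 (SE; edgeR adjusted p = 0.843), and -0.30 without GalTKO replicate 1. Tgfb3 had 95.1, 158 and 91.9 CPM in GalTKO and 107, 101 and 79.5 CPM in wildtype replicates 1 to 3, a log2 fold change of 0.26 ± 0.23 (SE), with the highest value in GalTKO replicate 2. Tgfb2, the least abundant of the 3 per length, averaged 20.4 ± 5.73 CPM in GalTKO and 23.6 ± 2.47 CPM in wildtype ovaries (SD, n = 3 each). Ltbp1, which holds latent TGF-beta in the matrix, had 755, 393 and 798 CPM in GalTKO and 606, 752 and 938 CPM in wildtype replicates 1 to 3. GalTKO replicate 2 was the lowest, and the log2 fold change was -0.24 ± 0.29 (SE) with it and 0.02 without it.

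The ID genes are direct targets of the BMP SMADs and encode inhibitors of helix-loop-helix transcription factors. Id1 had 20.4, 16.9 and 21.2 CPM in GalTKO and 21.4, 22.3 and 19.6 CPM in wildtype replicates 1 to 3, which overlap, with a log2 fold change of -0.11 ± 0.12 (SE; edgeR adjusted p = 0.690). Id3 had 71.1, 85.7 and 83.8 CPM in GalTKO and 107, 85.0 and 93.9 CPM in wildtype replicates 1 to 3. The groups overlapped by a narrow margin, GalTKO replicate 2 lying just above wildtype replicate 2. Its log2 fold change was -0.25 ± 0.11 (SE; edgeR adjusted p = 0.311), and Id2 had -0.04 ± 0.25 (SE). None of the 3 ID genes passed the test.

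Among the antagonists that bind BMP ligands outside the cell, Grem1, a gene of cumulus and granulosa cells, had 76.4, 12.9 and 36.6 CPM in GalTKO and 27.2, 31.0 and 28.2 CPM in wildtype replicates 1 to 3. The wildtype libraries lay within the GalTKO range. The SD of its log2 level was 1.27 in GalTKO and 0.09 in wildtype ovaries, and the log2 fold change of 0.54 ± 0.61 (SE) became -0.23 without GalTKO replicate 1 and 0.98 without GalTKO replicate 2. Nog and Chrd, which encode noggin and chordin, were low, at 1.12 to 2.76 CPM and 0.851 to 1.68 CPM in GalTKO and at 1.39 to 2.76 CPM and 0.996 to 1.36 CPM in wildtype libraries. The log2 SD was larger in GalTKO than in wildtype ovaries for 20 members (60.6%), against 65.2% of all tested genes.

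The rest of the pathway was described with 95 further genes in 5 roles, of which 76 had enough counts to be tested. Of these, 2 changed, 1 in each direction: Gdf10 was lower and Amh higher in GalTKO ovaries. That count is near the 2.55% of all tested genes that were called. Before adjustment, p was under 0.05 for 19 of the 76, 10 with a negative and 9 with a positive fold change, beside 17.1% of all tested genes. The genotypes did not overlap for 19, GalTKO being below in 10 and above in 9, which is near the 23.7% of all tested genes. The median log2 fold change of the 76 was -0.03.

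Both changed genes encode ligands. Gdf10, or BMP3b (chromosome 14, 33923587 to 33937983), the gene whose promoter is printed above, had 2.75, 2.29 and 2.08 CPM in GalTKO and 11.8, 6.68 and 6.63 CPM in wildtype replicates 1 to 3. Every GalTKO library lay far below the lowest wildtype library, and wildtype replicate 1 was the highest. The log2 fold change was -1.81 ± 0.28 (SE; edgeR adjusted p = 0.0153) and stayed past the threshold with any 1 library left out, but the limma voom adjusted p was 0.0507. Amh, the hormone of growing follicles that signals through the BMP SMADs, had 292, 265 and 249.6 CPM in GalTKO and 173, 173 and 131 CPM in wildtype replicates 1 to 3, without overlap. Its log2 fold change was 0.76 ± 0.12 (SE; edgeR adjusted p = 0.0214), and the call was lost without wildtype replicate 1 (0.0632), wildtype replicate 2 (0.0697) or GalTKO replicate 1 (0.0625), these being edgeR adjusted p-values. The other 12 ligand genes tested did not pass, among them Inhbb, which encodes an activin and inhibin subunit, with a log2 fold change of -0.35 ± 0.14 (SE).

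None of the 8 further receptor or co-receptor genes tested passed with edgeR on all 6 libraries. Acvrl1, the endothelial type I receptor ALK1, had 39.7, 37.4 and 61.1 CPM in GalTKO and 26.7, 28.2 and 32.4 CPM in wildtype replicates 1 to 3, higher in every GalTKO library, with a log2 fold change of 0.66 ± 0.19 (SE; edgeR adjusted p = 0.138). Its endothelial co-receptor Eng, or endoglin, had 99.5, 127 and 101 CPM in GalTKO and 130.3, 133 and 148 CPM in wildtype replicates 1 to 3, lower in every GalTKO library, at -0.33 ± 0.11 (log2, SE; edgeR adjusted p = 0.191). The receptor of AMH, Amhr2, had a log2 fold change of 0.58 ± 0.22 and the BMP co-receptor Rgmb of -0.32 ± 0.11 (SE). Of the 20 extracellular modulators tested none passed. The smallest p-values were those of Chrdl2, a chordin-like antagonist at 1.03 ± 0.29, Fst, which encodes the activin-binding follistatin at -0.38 ± 0.11, Nrros, a TGF-beta anchoring protein gene of myeloid cells at -0.53 ± 0.18, and Ltbp4, a relative of Ltbp1 at -0.40 ± 0.14 (log2, SE). No intracellular regulator passed among 17 tested, the smallest p being that of Skil, a SMAD co-repressor and TGF-beta target, at -0.65 ± 0.24 (log2, SE). No further target gene passed among 17 tested. Tsc22d1 at 0.30 ± 0.10, Snai1 at 0.64 ± 0.23, Cdkn1a at 1.32 ± 0.49 and Tgfbi at -0.58 ± 0.21 (log2, SE) had the smallest p-values, in both directions. The DESeq2 Wald test called Acvrl1 (adjusted p = 0.0285) and Tsc22d1 (0.0393) higher and Fst (0.0463) lower, besides Gdf10 and Amh. Without GalTKO replicate 2, edgeR called Eng (adjusted p = 0.0329) and Fst (0.0446) lower, and with no filter on low counts it called Fst (0.0352) lower.

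Markers of several cell types also differed between genotypes. The endothelial list, whose sums are given beside Smad1, had a negative fold change for 8 of 8 genes, and Pecam1, Kdr and Flt1 changed. Their log2 fold changes were -0.60, -0.68 and -0.55, with edgeR adjusted p-values of 0.0441, 0.00769 and 0.0261. The macrophage list was likewise negative for 8 of 8, and Csf1r, Mpeg1, Ctss and C1qb changed. The theca and interstitial markers summed to 6956 to 10481 CPM in GalTKO and 11335 to 16422 CPM in wildtype libraries, without overlap, but 4 of the 6 genes had a negative and 2, Cyp17a1 at 0.92 and Insl3 at 0.96 (log2), a positive fold change. That sum is made up mostly of the abundant Cyp11a1 and Hsd3b1. Star, which is in the theca and the luteal list, was lower (-1.13, log2; edgeR adjusted p = 0.0263). The granulosa list held 1 gene that fell, Nr5a2, and 1 that rose, Amh. None of the 33 members is in these lists. Bmpr2, Bmpr1a and Tgfbr2, like Smad1, were at lower levels in the same libraries as the endothelial, the macrophage and the theca and interstitial sums. The part of cell makeup in the values of these genes was not tested.

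Other marker sums overlapped, were higher in GalTKO libraries or were near 0. The luteal markers summed to 2605 to 7997 CPM in GalTKO and 7926 to 9473 CPM in wildtype libraries, which overlap between GalTKO replicate 3 and wildtype replicate 2. The lowest luteal sum was that of GalTKO replicate 2, and 6 of the 7 genes had a negative fold change, among them Ptgfr at -0.03, while Akr1c18 was at 0.53 (log2). The 7 smooth muscle and pericyte markers summed to 1339 to 2008 CPM in GalTKO and 1525 to 1771 CPM in wildtype libraries, which overlap. Of these, Rgs5 was lower (-0.72, log2; edgeR adjusted p = 0.0098), and the 6 others did not pass the test, 2 with a negative and 4 with a positive fold change. Surface epithelium markers summed to 106 to 184 CPM in GalTKO and 110.1 to 114 CPM in wildtype libraries, with Krt8 higher. The 4 adipocyte markers summed to 40.1 to 53.9 CPM in GalTKO and 21 to 23.9 CPM in wildtype libraries, and of these Plin1 was higher (1.06, log2; edgeR adjusted p = 0.00617), while Fabp4 averaged 1.13 ± 0.306 CPM in GalTKO and 1.19 ± 0.137 CPM in wildtype ovaries (SD, n = 3 each), and Adipoq and Lep had at most 1 count in any library. The oviduct marker Ovgp1 was at 20.3 CPM in wildtype replicate 2 and at most 0.800 CPM in each of the other 5 libraries. Without that library Smad1 missed the threshold, though its level there, 113 CPM, lay between those of the other wildtype libraries. Any link between Ovgp1 and the Smad1 call was not tested. Erythroid markers summed to 2.0 to 3.8 CPM in GalTKO and 3.0 to 6.7 CPM in wildtype libraries.

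**Figure D5:**
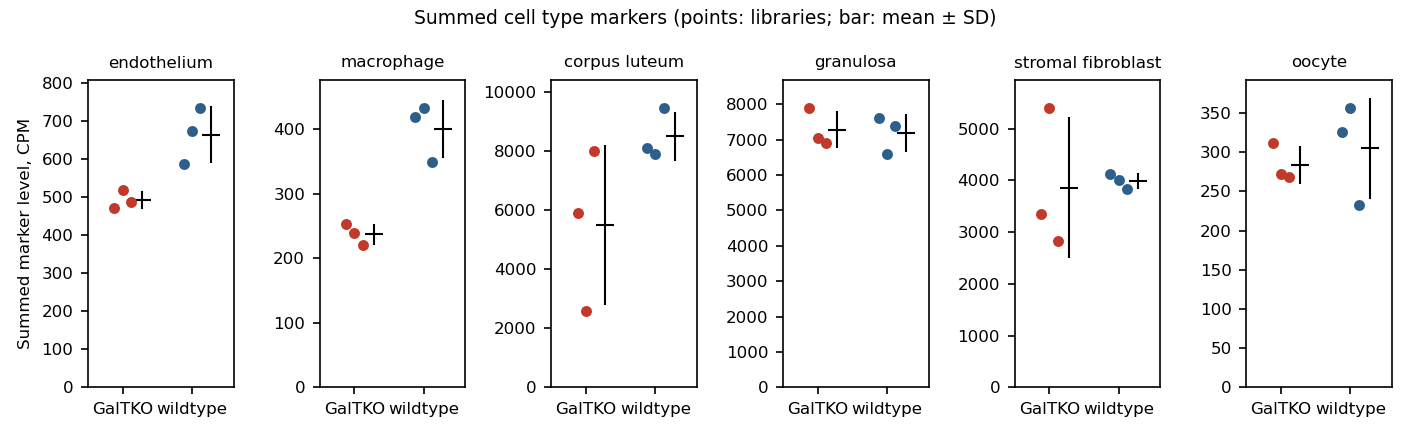
Summed level of cell type markers, in CPM from 0, for endothelium, macrophage, corpus luteum, granulosa, stromal fibroblast and oocyte, with GalTKO left of wildtype, 1 point per library, and the mean ± SD beside the points. The endothelial and macrophage sums are lower in all 3 GalTKO libraries, the granulosa and oocyte sums overlap, and GalTKO replicate 2 has the lowest luteal and the highest stromal sum.

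The libraries differed in how often they held a member's highest or lowest value. GalTKO replicate 2 held the highest value for 8 members (24.2%) and the lowest for 9 (27.3%) of the 33, beside 21.4% and 19.8% of all tested genes. Wildtype replicate 2 held the highest for 2 members (6.06%) and the lowest for 1 (3.03%), beside 9.80% and 11.2% of all tested genes. Wildtype replicate 1 held the highest value for 10 members (30.3%) and the lowest for none, beside 11.6% and 13.8% of all tested genes. For GalTKO replicate 3 these were 2 members (6.06%) and 6 (18.2%), beside 21.3% and 18.5% of all tested genes. For GalTKO replicate 1 they were 5 (15.2%) and 8 (24.2%), beside 17.4% and 17.2%. For wildtype replicate 3 they were 6 (18.2%) and 9 (27.3%), beside 18.6% and 19.5%.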

How the data were processed

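Total RNA from flash-frozen ovaries was depleted of ribosomal RNA with Ribo-Zero Gold and sequenced from TruSeq stranded libraries, per the labels' protocols. The authors deposited whole-number counts per Ensembl gene, not normalized. Per the submitters' processing notes, featureCounts 1.6.3, DESeq2 1.30.1, STAR 2.7.6a and cutadapt 1.16 were used on GRCm38. The sources used here give no settings, annotation release or strand option. How reads that fall in 2 overlapping genes were counted is therefore not known.

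Samples were grouped by the genotype in their labels. Names, coordinates and exon lengths came from GENCODE M21 on GRCm38 (55227 of 55487 identifiers matched). With R 4.3.3 and edgeR 4.0.16, genes were filtered by filterByExpr (minimum count 10, minimum total 15), libraries were scaled by TMM, and 16957 genes in 6 libraries were fitted by robust quasi-likelihood with 1 term, genotype. P-values are two-sided and Benjamini-Hochberg adjusted over all tested genes; the threshold was 0.05. The SE is the log2 fold change divided by the square root of F. CPM and RPKM use TMM-scaled library sizes and union exon length; log2 SDs add 0.5 CPM. The script was tested on simulated data. The chi-square per degree of freedom between replicates was at least 12.0, more than counting noise alone gives. It cannot tell separate animals from technical variation. Each library was counted as 1 sample.

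Totals ran from 19232486 to 25729564 counts, and the common biological coefficient of variation was 17.4%. Alternatives were upper-quartile and median-of-ratios scaling, no filter, 1 CPM in 3 libraries, the DESeq2 1.42.0 Wald test, voom with quality weights in limma 3.58.1, the replicate block, protein-coding genes, an adjusted p of 0.1 and each library left out. Figures were made in Python 3.11.15 with matplotlib 3.10.9.

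The members, the further pathway genes and the markers were chosen with earlier results of these data known. Named genes are Galt, every member, the called further pathway genes and at most 4 more per role with the smallest p. Called markers are named too, as are abundant markers of cell types that differed between genotypes along with a member. Txndc5 and Orc4 were named for their overlap, and Fabp4, Ovgp1, Cyp17a1, Insl3, Hsd3b1, Ptgfr and Akr1c18 after their values were seen.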

Additional observations from a re-analysis of the deposited data

How the results depend on the processing

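Smad1 was called under all 8 alternative fits to 6 libraries. The DESeq2 Wald test called 3 members, 5 further pathway genes and 1044 of all genes; limma voom called 1 further pathway gene, with Gdf10 at -1.77 and not called. Of all genes, 877 passed with no filter, 260 among protein-coding genes alone and 761 at an adjusted p of 0.1. With 1 library left out, 0 to 1 members, 1 to 4 further pathway genes and 165 to 742 of all genes passed. Smad1 then lay between -1.03 and -0.80 and Amh between 0.63 and 0.82 (log2). Fewer samples and fewer genes are part of how some of these fits are made; beyond that the cause was not tested.

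The sign of members that were not called turned in some fits. Under voom it did for Chrd (-0.20), Acvr1 (-0.061), Smad9 (-0.21), Tgfbr3 (-0.13) and Smad6 (-0.18), under upper-quartile scaling for Smad7 (0.017) and under the protein-coding fit for Smad7 (0.00017). With 1 library left out, the ranges that crossed 0 were -0.20 to 0.22 for Acvr1, -0.0282 to 0.139 for Acvr1b, -0.12 to 0.0748 for Acvr2b, -0.24 to 0.32 for Bmp4, -0.20 to 0.0468 for Bmp7 and -0.0024 to 0.26 for Bmpr1b. They were -0.33 to 0.22 for Chrd, -0.23 to 0.98 for Grem1, -0.26 to 0.23 for Id2, -0.42 to 0.0219 for Ltbp1, -0.51 to 0.19 for Nog and -0.29 to 0.24 for Smad6. They were -0.12 to 0.11 for Smad7, -0.25 to 0.27 for Smad9, -0.30 to 0.42 for Tgfb1, -0.38 to 0.0041 for Tgfb2, -0.0374 to 0.40 for Tgfb3 and -0.23 to 0.19 for Tgfbr3.

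Deviations of libraries with the same replicate number correlated at 0.09, -0.04 and 0.07, and those with different numbers at -0.11 to 0.03. With 3 libraries per group, these values cannot decide whether the numbers pair the samples. With the replicate number as a block, 1 member (Smad1, -0.92), 2 further pathway genes and 321 of all genes passed, and the sign turned for Chrd (-0.0147), Smad7 (0.0024), Tgfbr3 (-0.0094) and Smad6 (-0.0031). Depth limits Nog, Chrd and Acvr1c most, each below 5 CPM in every library.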
